A study of Mus musculus with 10 samples.

Results

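The genes described here encode peptides of the calcitonin and adrenomedullin family and the parts of a receptor that some of these peptides, though not calcitonin, share. They are 4 peptide genes (*Calca*, *Calcb*, *Adm* and *Adm2*), the receptor gene *Calcrl* and the 3 genes of receptor activity-modifying proteins (*Ramp1*, *Ramp2* and *Ramp3*), taken by symbol from the 45706 genes of the count table, and all 8 were found in it. RNA was sequenced from the uteri of 5 Arid1a f/f mice, the controls, and of 5 Ltf iCre/+ Arid1a f/f mice, called mutants here, all mature adult females at gestation day 3.5 after mating with wildtype males, when the uterus prepares for implantation. Both genotypes carried the floxed *Arid1a* alleles on a mixed genetic background. Only the mutants carried the recombinase, which a single lactoferrin allele (*Ltf*) drives and which removes *Arid1a* from epithelial cells of the endometrium, and the controls carried no Cre. The libraries were made from pieces of whole uterus and held between 59296537 and 72702411 gene counts. The paper adds that this Cre is reported in neutrophils and other myeloid cells, where it cannot exclude a loss of *Arid1a*. *Arid1a* itself, which uterine cells without the recombinase keep, had a log2 fold change of -0.20, which did not pass (edgeR, adjusted p = 0.201). Expression is given as CPM, the count of a gene per 1000000 counts, on library sizes normalized by edgeR's TMM method, and 3 counts corresponded to between 0.0418 and 0.0507 CPM. Markers of epithelium, stroma, myometrium and endothelium were detected in every uterus. Mutant replicates 1 and 5 stood apart from all other uteri on the first principal component, which took 54.5% of the variance of the 500 most variable genes (scores of 45.4 and 60.7, against 5.53 to 15.0 in the other mutants and -32.5 to -19.6 in controls), and results are also given without them.

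CALCRL is a G protein-coupled receptor that reaches the cell surface with a RAMP protein, and the RAMP sets which peptide it answers to. With RAMP1 it is the receptor for calcitonin gene-related peptide (CGRP), while with RAMP2 or RAMP3 it is a receptor for adrenomedullin, and it signals mainly through Gs and cyclic AMP. *Calca* gives rise to calcitonin or to CGRP by alternative splicing, and calcitonin is known as a progesterone-dependent product of the rodent endometrial epithelium before implantation. Adrenomedullin acts on blood and lymphatic vessels, where *Calcrl* and *Ramp2* are typically expressed.

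*Calca* (ENSMUSG00000030669) lies on chromosome 7 of GRCm38 from 114631478 to 114636357 on the minus strand, and its paralog *Calcb* (ENSMUSG00000030666), which encodes a second CGRP, from 114718643 to 114723365 on the plus strand of the same chromosome. The paralogs are most alike over 170 coding bases in exons 3 and 4 of both transcripts, which are shown because reads from this stretch decide how well the pair can be told apart. In *Calca* the stretch covers chr7:114634468-114634495 and chr7:114632458-114632599, and in *Calcb* chr7:114720187-114720214 and chr7:114721975-114722116. Capitals mark the 11 bases that differ.
Calca: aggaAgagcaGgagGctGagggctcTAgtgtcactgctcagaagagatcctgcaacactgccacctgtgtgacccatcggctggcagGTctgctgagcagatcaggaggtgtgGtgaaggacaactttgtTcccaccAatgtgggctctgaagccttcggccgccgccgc
Calcb: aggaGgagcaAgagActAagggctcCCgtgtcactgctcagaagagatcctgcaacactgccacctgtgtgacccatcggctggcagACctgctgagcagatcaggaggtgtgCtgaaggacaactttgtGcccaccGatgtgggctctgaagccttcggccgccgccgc
The sequences come from the GENCODE transcripts of GRCm38. The longest identical run between transcripts of the pair was 61 bases, and only 12 of the 1634 different 50-base stretches of *Calca* occurred in *Calcb*, so that reads of 50 bases separated the genes over nearly their whole length. Calcitonin and CGRP messages of *Calca* are summed in its count and cannot be told apart here.

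In the genotype comparison 3 of the 8 genes passed the threshold of an adjusted p under 0.05. *Calca* and *Calcrl* were lower and *Ramp3* was higher in mutant uteri, and for these 3 the values of the genotypes did not overlap. Of the 25146 genes tested, whose counts averaged 1 or more per library, 9.70% passed the same threshold (5.19% higher and 4.51% lower in mutants), and 10.7% had values that did not overlap. *Ramp2* was close to the threshold, while *Ramp1*, *Calcb*, *Adm* and *Adm2* did not pass it.

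**Figure D1:**
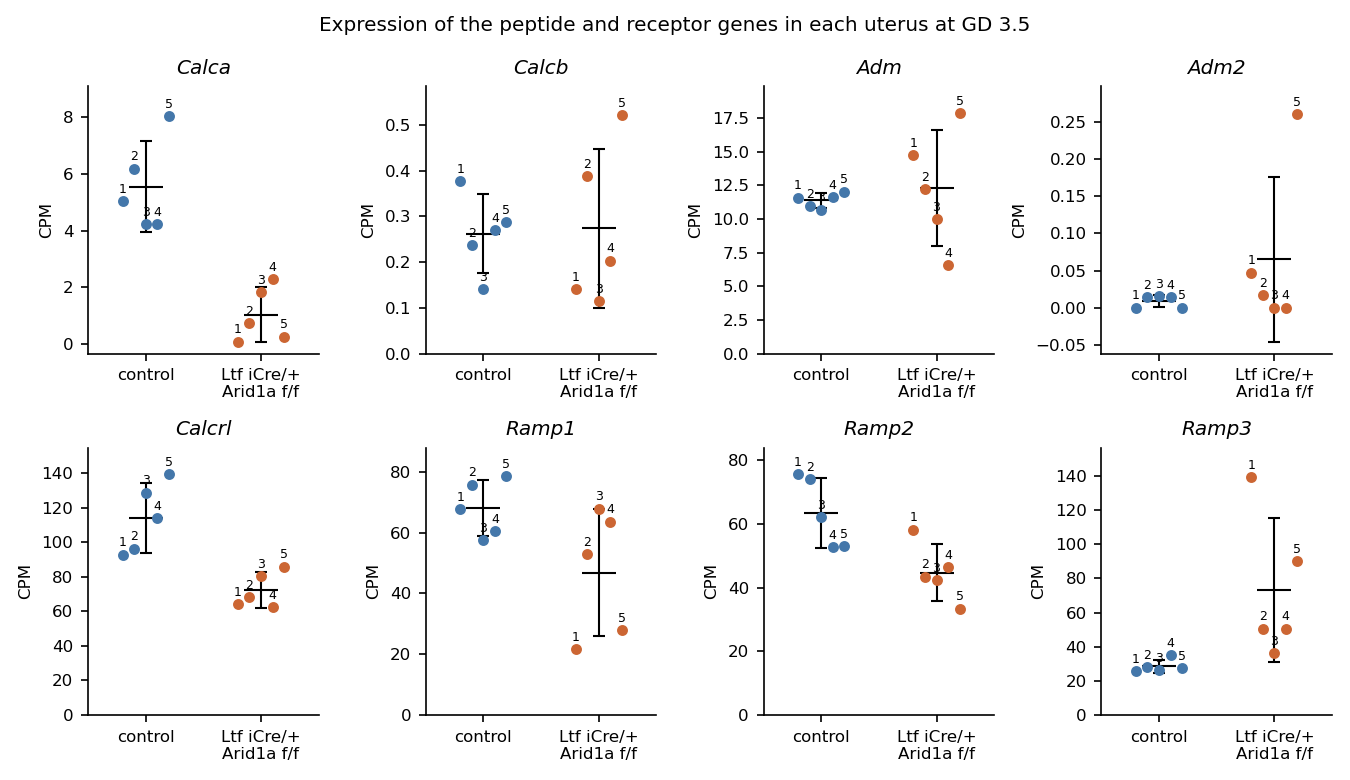
CPM (vertical axis, 1 scale per gene) of the 8 genes in each uterus of the control and mutant (Ltf iCre/+ Arid1a f/f) mice; points are uteri with their replicate number, and black bars give the mean and SD of 5 uteri. Control *Calca* lies between 4.23 and 8.01 CPM and that of mutant uteri between 0.0941 and 2.29 CPM, while *Adm* spreads to both sides of the controls.

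*Calca* showed the largest difference of the genes that passed. It had 5.04, 6.18, 4.23, 4.23 and 8.01 CPM in control replicates 1 to 5, and 0.0941, 0.744, 1.85, 2.29 and 0.275 CPM in mutant replicates 1 to 5. Every mutant uterus lay below every control, and replicates 1 and 5 were the lowest, with 6 and 19 counts against at least 270 in any control. The mean fell from 5.54 ± 1.60 to 1.05 ± 0.974 CPM (SD, n = 5 each). By edgeR's quasi-likelihood test the log2 fold change was -2.39 with a standard error of 0.66 (adjusted p = 0.0427, Benjamini-Hochberg over all genes), a 5.26-fold lower level, and the two-sided exact permutation p of 0.00794 was the smallest that 5 uteri against 5 allow. DESeq2 gave an adjusted p of 0.000944. In a whole uterus, fewer cells of a type and less RNA per cell cannot be told apart. The edgeR call was close to its threshold. Without control replicates 1 to 5 in turn the adjusted p of *Calca* was 0.0677, 0.0892, 0.0743, 0.0700 and 0.0908, without mutant replicate 2 it was 0.0783 and without replicate 5 it was 0.0556, with log2 fold changes between -2.91 and -2.10 over all 10 omissions. Without mutant replicates 1 and 5 together the log2 fold change was -1.76 (adjusted p = 0.0134).

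*Calca* was also compared with epithelial markers in the same uterus. Of 10 such genes (*Epcam*, *Cdh1*, *Krt8* and others), 6 were called higher and 0 lower in mutant uteri (median log2 fold change 0.79 against 0.03 for all tested genes), and their summed level was 821 to 1093 CPM in controls and 1195 to 2299 CPM in mutant uteri. Relative to their mean log2 CPM, *Calca* stood at -3.48 ± 0.455 in controls and -7.44 ± 1.97 in mutant uteri (SD, n = 5 each). The difference of -3.97 on the log2 scale was larger than that of *Calca* alone, without overlap (two-sided exact permutation p = 0.00794, 0.0106 after adjustment over the 4 such values tested). It was -3.28 without mutant replicate 1 and -2.66 without mutant replicates 1 and 5 together.

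*Calcb* was expressed at a far lower level and did not separate the genotypes. Controls had 0.378, 0.237, 0.141, 0.270 and 0.287 CPM, and mutant uteri 0.141, 0.389, 0.114, 0.203 and 0.521 CPM. The values interleaved, and the highest belonged to mutant replicate 5, in which *Calca* was second lowest. The log2 fold change of *Calcb* was 0.06 ± 0.45 (standard error, edgeR adjusted p = 0.956), resting on 7 to 36 counts per library, and -0.31 without that replicate. The log2 ratio of *Calca* to *Calcb* within a uterus was 4.16 ± 0.469 in controls and 1.28 ± 2.01 in mutant uteri (SD, n = 5 each), a difference of -2.89 (two-sided exact permutation p = 0.00794, 0.0317 adjusted over 8 ratios), computed with a prior of 0.05 CPM. In replicates 1 and 5 of the mutants the counts of *Calca* were below those of *Calcb*, while controls held 270 to 558 counts of *Calca* and 9 to 27 of *Calcb*.

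*Adm* (ENSMUSG00000030790, chromosome 7, 110627661 to 110629820), the gene of adrenomedullin, was the most abundant peptide gene. It had 11.6, 10.9, 10.7, 11.6 and 12.0 CPM in controls, and 14.7, 12.2, 10.01, 6.58 and 17.9 CPM in mutant uteri. Of the latter, 3 lay above and 2 below all controls, and the coefficient of variation was 35.2% against 4.82% in controls. Neither the direction nor the size of a mean difference could be fixed (log2 fold change 0.11, standard error 0.22, adjusted p = 0.805 from edgeR), and without mutant replicate 5 the log2 fold change was -0.06. *Adm2* (ENSMUSG00000054136, chromosome 15, 89322720 to 89324731), which encodes intermedin, was near the limit of detection, with 0, 1, 1, 1 and 0 counts in controls and 3, 1, 0, 0 and 18 counts in mutant uteri. Only mutant replicate 5 held more than 3 counts, and without it *Adm2* no longer reached a mean of 1 count per sample and was not tested. The fitted log2 fold change of 2.68 (adjusted p = 0.210) rests on the 18 counts of that replicate and is no measure of size.

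*Calcrl* (ENSMUSG00000059588, chromosome 2, 84330626 to 84425411, minus strand), the receptor gene itself, had 92.8, 96.2, 129, 114 and 140 CPM in controls. In mutant uteri it had 64.2, 68.2, 80.3, 62.4 and 85.9 CPM. All 5 were below every control, and unlike for *Calca* replicates 1 and 5 did not stand apart from the other 3. The mean fell from 114 ± 20.2 to 72.2 ± 10.4 CPM (SD, n = 5 each), 1.58-fold lower (edgeR log2 fold change -0.66, standard error 0.13, adjusted p = 0.0124). The call held in each of the 10 fits that left out 1 uterus, with log2 fold changes between -0.73 and -0.59 and adjusted p between 0.00884 and 0.0359, and without mutant replicates 1 and 5 together (log2 fold change -0.70, adjusted p = 0.0135).

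All 10 endothelial markers of the list used here were called lower as well, with log2 fold changes from -1.26 to -0.66 and a median of -0.91. They are *Pecam1*, *Cdh5*, *Kdr*, *Tek*, *Tie1*, *Flt1*, *Emcn*, *Esam*, *Cldn5* and *Erg*, of which *Cdh5*, the cadherin of endothelial junctions, went from 287 to 120 CPM. Their summed level was 921 to 1316 CPM in controls and 451 to 668 CPM in mutant uteri. Relative to their mean log2 CPM in the same uterus, *Calcrl* stood at 0.35 ± 0.395 in controls and 0.64 ± 0.332 in mutant uteri (SD, n = 5 each), and this difference of 0.29 was smaller than the spread between uteri of a genotype (two-sided exact permutation p = 0.254). Of 6 markers of pericytes and vascular smooth muscle, 3 were called lower and 0 higher (median -0.60), *Rgs5* among them with 847 and 345 CPM. Of 5 lymphatic endothelial genes, *Pdpn*, which is also expressed outside lymphatic vessels, was called higher (log2 fold change 0.67) and 4 did not pass, with a median of 0.01.

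*Ramp2* (ENSMUSG00000001240, chromosome 11, 101246028 to 101259546), the partner of CALCRL in blood vessels, had 75.7, 74.1, 62.1, 52.7 and 53.0 CPM in controls and 58.2, 43.4, 42.2, 46.4 and 33.4 CPM in mutant uteri. Of the latter, 4 were below every control and replicate 1 was within their range. The log2 fold change of -0.51 (standard error 0.15) missed the threshold in edgeR (adjusted p = 0.0600) and passed it in DESeq2 (adjusted p = 0.0256), and without mutant replicate 1 it was -0.62 (adjusted p = 0.0266). Relative to the endothelial markers *Ramp2* stood at -0.50 ± 0.190 in controls and -0.06 ± 0.255 in mutant uteri (SD, n = 5 each), 0.44 higher and without overlap, though the highest control (-0.32) was close to the lowest mutant uterus (two-sided exact permutation p = 0.00794, adjusted p = 0.0106). The ratio of *Ramp2* to *Calcrl* did not differ beyond the spread (log2 difference 0.15, exact permutation p = 0.635). In the annotation *Ramp2* shares exons with *Vps25* on the same strand, for which only 19 to 48 counts per library were listed, and reads on shared exons may be missing from both.

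*Ramp1* (ENSMUSG00000034353, chromosome 1, 91179822 to 91225196), the partner that makes CALCRL a CGRP receptor, had 67.7, 75.8, 57.4, 60.5 and 78.6 CPM in controls. In mutant uteri it had 21.7, 52.8, 67.9, 63.5 and 27.9 CPM, so that replicates 1 and 5 were far below all controls, replicate 2 slightly below and replicates 3 and 4 within their range. The log2 fold change of *Ramp1* was -0.54 ± 0.28 (standard error, edgeR adjusted p = 0.252), and -0.15 without replicates 1 and 5 together. In controls *Ramp1* put the uteri in the same order as *Calca*, from low to high replicates 3, 4, 1, 2 and 5. For *Calca*, however, control replicates 3 and 4 were nearly equal (4.23 CPM each), so their order is not resolved. In mutants both genes were lowest in replicate 1, followed by replicates 5 and 2, while replicates 3 and 4 changed places between them.

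*Ramp3* (ENSMUSG00000041046, chromosome 11, 6658521 to 6677475), a partner for adrenomedullin receptors, was the only member called higher. Controls had 25.7, 27.8, 26.2, 35.1 and 27.5 CPM, and mutant uteri 139, 50.6, 36.1, 50.5 and 90.2 CPM. The lowest mutant uterus lay just above the highest control, and replicates 1 and 5, the lowest for *Calca* and *Ramp1*, were the highest for *Ramp3*. The means were 28.5 ± 3.83 and 73.4 ± 42.0 CPM (SD, n = 5 each), a 2.58-fold rise (edgeR log2 fold change 1.37, standard error 0.31, adjusted p = 0.0216; two-sided exact permutation p = 0.00794). Without control replicates 2, 3 and 5 in turn the adjusted p was 0.0569, 0.0585 and 0.0503, and without mutant replicates 1 and 5 together the log2 fold change was 0.68 (adjusted p = 0.0107). The pseudogene *Gm11978* overlaps *Ramp3* on the opposite strand but held at most 11 counts per library.

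Against endothelial markers the level of *Ramp3* went from -1.65 ± 0.324 to 0.50 ± 0.862 on the log2 scale (SD, n = 5 each), a difference of 2.15 without overlap (two-sided exact permutation p = 0.00794, adjusted p = 0.0106), and of 1.55 without mutant replicates 1 and 5 together. Against the epithelial markers, a comparison added after the data were seen, it went from -1.09 ± 0.142 to -0.90 ± 0.482, and this difference of 0.19 was smaller than the spread between mutant uteri (two-sided exact permutation p = 0.429). Mutant replicate 1, the highest uterus for *Ramp3*, also had the highest summed epithelial level, 2299 CPM.

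**Figure D2:**
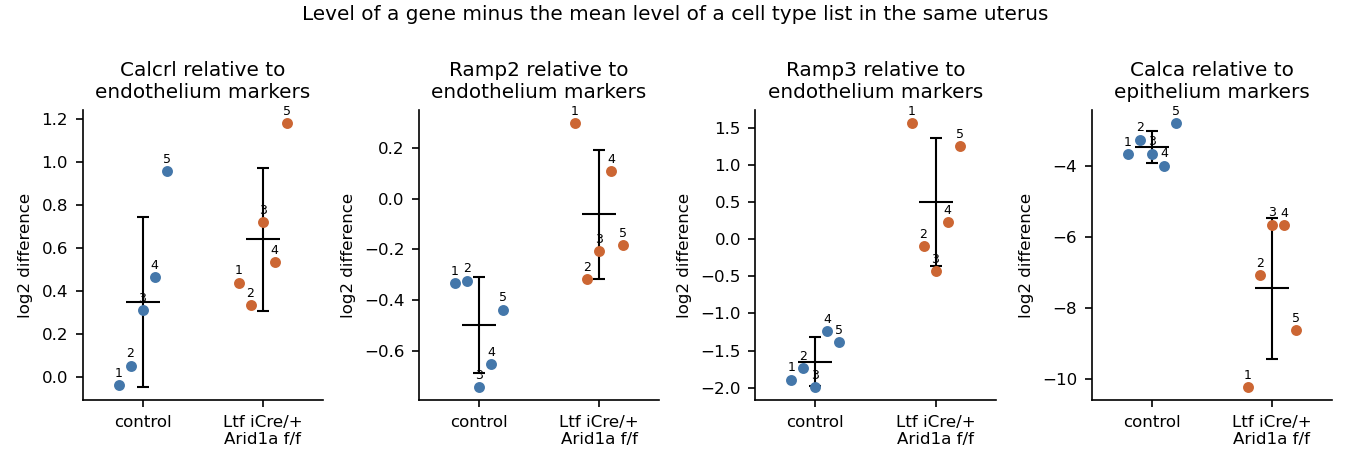
Log2 CPM of a gene minus the mean log2 CPM of a cell type list in the same uterus (vertical axis, 1 scale per panel); points are uteri with their replicate number, and black bars give the mean and SD of 5 uteri. The genotypes overlap for *Calcrl*, and do not overlap for *Ramp2* and *Ramp3* against endothelium or for *Calca* against epithelium.

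The relative levels of the receptor parts were compared per length, in CPM per kilobase of merged exons. In controls *Calcrl* had 23.4 ± 4.14, *Ramp1* 22.5 ± 3.05, *Ramp3* 20.6 ± 2.78 and *Ramp2* 19.2 ± 3.35 (SD, n = 5 each), and these neighbours differed by less than their spread. Over the exons that *Ramp2* does not share with another gene its level was 28.9 ± 5.03, so its place among the 4 depends on the length used. *Adm* followed with 7.03 ± 0.339 and *Calca* with 3.29 ± 0.948, each below the next higher gene in every control. *Calcb* had 0.208 ± 0.0677 and *Adm2* 0.00675 ± 0.00618. In mutant uteri *Ramp3* came first with 53.2 ± 30.5, followed by *Ramp1* with 15.5 ± 6.92, *Calcrl* with 14.8 ± 2.12 and *Ramp2* with 13.6 ± 2.71, and the last 3 again differed by less than their spread. *Adm* had 7.59 ± 2.67 and *Calca* 0.624 ± 0.578.

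Of the summed level of the 3 RAMP genes per length, *Ramp3* made up 33.2% ± 4.93 in controls and 61.1% ± 16.7 in mutant uteri (SD, n = 5 each). *Ramp1* made up 36.0% ± 3.72 and 21.7% ± 12.9, and *Ramp2* 30.8% ± 4.58 and 17.2% ± 3.95. A higher share of *Ramp3* by itself lowers the shares of the others. In RNA of a whole uterus the RAMP genes and *Calcrl* can come from different cells. The shares and ratios therefore do not give the receptor type of any cell, which was not tested. The lowest *Ramp3* share of a mutant uterus, 42.6%, was above the highest of a control, 41.4%, and the genotypes did not overlap with the length of the longest transcript or of unshared exons either. Within a uterus the log2 ratio of *Ramp3* to *Ramp2* was -1.15 ± 0.389 in controls and 0.56 ± 0.737 in mutant uteri (SD, n = 5 each), a 3.27-fold shift (two-sided exact permutation p = 0.00794, adjusted p = 0.0317 over 8 ratios). The ratio of *Ramp1* to *Ramp3* fell by 1.87 on the log2 scale (two-sided exact permutation p = 0.0159, adjusted p = 0.0423), with 4 of 5 mutant uteri below every control. The ratio of *Ramp1* to *Ramp2* did not differ beyond the spread (log2 difference -0.16, exact permutation p = 0.786).

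**Figure D3:**
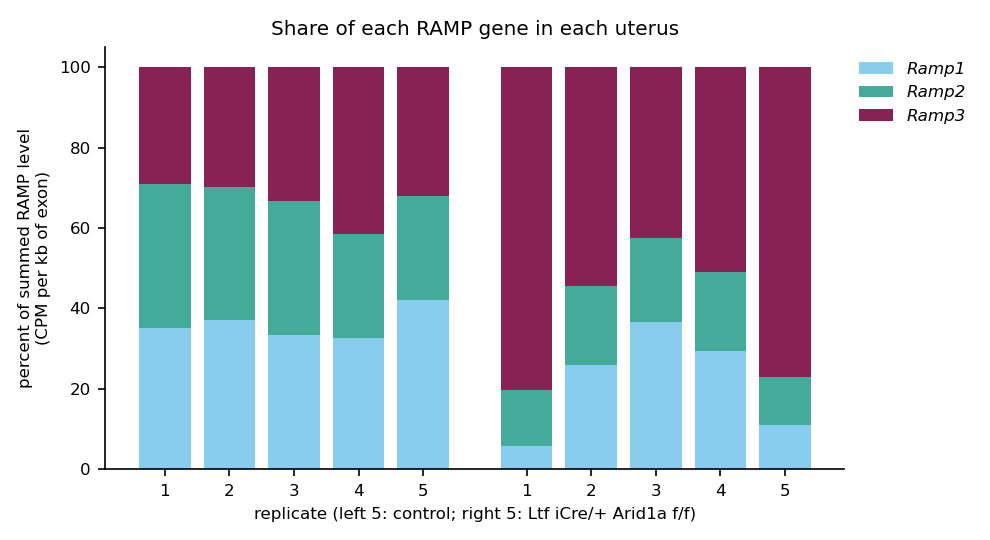
Share of *Ramp1*, *Ramp2* and *Ramp3* in their summed level (vertical axis, percent of CPM per kilobase of merged exons) in each uterus, with the 5 controls on the left and the 5 mutant uteri on the right. The *Ramp3* share is 29.1% to 41.4% in controls and 42.6% to 80.3% in mutant uteri, highest in replicates 1 and 5.

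Peptide genes and the receptor gene were also set against each other. As the count of *Calca* sums calcitonin and CGRP messages, its ratio to *Calcrl* is not that of CGRP to its receptor. The ratio of *Calca* to *Calcrl* was lower in mutant uteri, by 2.30 as a log2 value, from -4.38 ± 0.418 to -6.68 ± 1.72 (SD, n = 5 each, two-sided exact permutation p = 0.0238, adjusted p = 0.0476). The ratio of *Adm* to *Calcrl* was 0.69 higher (log2 scale), which did not pass after adjustment over the 8 ratios (exact permutation p = 0.0397, adjusted p = 0.0635), and the ratio of *Adm* to *Adm2* did not differ beyond the spread (exact permutation p = 0.103). With 1 control left out in turn, none of the 4 ratios that passed (*Calca* to *Calcb*, *Ramp3* to *Ramp2*, *Ramp1* to *Ramp3*, *Calca* to *Calcrl*) kept an adjusted p under 0.05 (0.0635 to 0.111), while their directions were kept. Without mutant replicates 1 and 5 together these differences were -1.63, 1.19, -0.82 and -1.14 and did not pass, and that of *Ramp1* to *Ramp2* turned to 0.37. For the first 2 the exact permutation p was 0.0179, the smallest that 3 uteri against 5 allow, and 0.0714 after adjustment. For *Ramp1* to *Ramp3* and *Calca* to *Calcrl* the exact permutation p was 0.0357 and 0.0714 before adjustment.

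**Figure D4:**
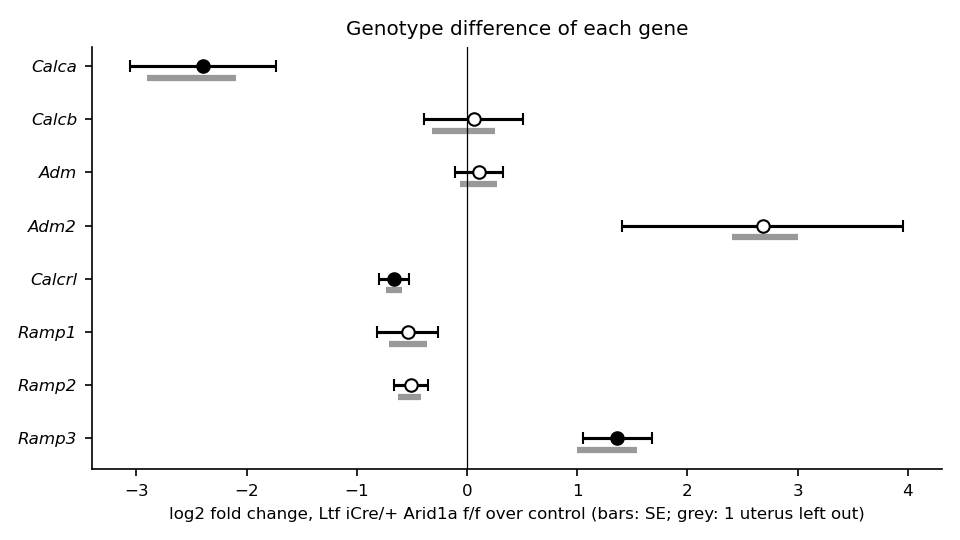
Log2 fold change of Ltf iCre/+ Arid1a f/f over control uteri (horizontal axis) of the 8 genes from edgeR, with standard errors as bars, filled where the adjusted p is under 0.05, and the range over fits with 1 uterus left out in grey. *Calca* (-2.39), *Calcrl* (-0.66) and *Ramp3* (1.37) are filled; the grey bar of *Adm2* leaves out the omission of mutant replicate 5, in which it was not tested.

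For *Calca* and *Ramp3*, which had the largest fall and the only rise among the members called, the 250 bases before the RefSeq start of the gene are shown, from the RefSeq promoters of GRCm38.p6, in which 6 of the 8 genes were found. That of *Calca* is chr7:114636358-114636607 on the minus strand and that of *Ramp3* is chr11:6658283-6658532 on the plus strand, whose last bases lie within the gene as GENCODE places it. Capitals mark matches, on either strand, to any of 7 motifs. They are the cyclic AMP response element TGACGTCA and its core TGACG, the core of the estrogen response element, which is AGGTCA, the core of the progesterone and glucocorticoid response element, which is AGAACA, the hypoxia response core ACGTG, the AP-1 motif TGANTCA and the E-box motif CACGTG. The core TGACG lies within TGACGTCA, and ACGTG within CACGTG.
Calca: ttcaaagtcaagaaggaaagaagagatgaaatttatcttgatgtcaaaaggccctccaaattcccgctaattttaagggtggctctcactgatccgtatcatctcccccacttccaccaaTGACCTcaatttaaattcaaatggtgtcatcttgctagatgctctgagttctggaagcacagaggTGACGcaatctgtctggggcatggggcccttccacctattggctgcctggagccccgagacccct
Ramp3: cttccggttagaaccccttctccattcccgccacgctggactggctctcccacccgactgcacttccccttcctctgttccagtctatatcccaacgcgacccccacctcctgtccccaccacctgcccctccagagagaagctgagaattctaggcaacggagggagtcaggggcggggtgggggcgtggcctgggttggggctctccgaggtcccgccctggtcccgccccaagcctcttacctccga
*Calca* held TGACG once, 65 bases before the start, and AGGTCA once on the reverse strand, 130 bases before it. These motifs occur in 17.8% and 14% of the 32851 promoters of the same length. The share is 1.55% for TGACGTCA, 16.1% for AGAACA, 16.6% for ACGTG, 6.75% for the AP-1 motif and 6.02% for the E-box. None of the 7 motifs was found in these windows of *Ramp3*, *Ramp1*, *Calcrl*, *Adm* or *Adm2*. The window of *Calcrl*, chr2:84425267-84425516 on the minus strand, lies partly within the gene as GENCODE places it, which reaches to 84425411.

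The genes whose log2 CPM was most like that of a member were taken among those averaging 100 or more counts per library, over the 10 uteri. These values are descriptions, since the uteri of a genotype share their difference from the other genotype. For *Calca* they were *Zdhhc1* (Pearson's r = 0.990), *Dpep1* (0.989) and *Col23a1* (0.989), and for *Ramp1* *Col24a1* (0.993), *Acot1* (0.986) and *Cbr3* (0.986). For *Ramp3* they were *Pard6b* (0.990), a cell polarity gene, *Krt7* (0.985), an epithelial keratin, and *Dsp* (0.983), the gene of the desmosomal protein desmoplakin. For *Calcrl* they were *Rasal2* (0.960), *Pcdhb2* (0.949) and *Pi16* (0.940), for *Ramp2* *Eif4b* (0.948), *Efr3b* (0.938) and *Sox13* (0.930), and for *Adm* *Rab5a* (0.95), *Scyl2* (0.95) and *Ubxn2a* (0.919). After the mean of each genotype was subtracted, the genes most like *Calca* were *1700001L05Rik* (0.992), *A530020G20Rik* (0.986) and *Adarb2* (0.984), and those most like *Ramp3* were *Mfsd4a* (0.984), *Esrp1* (0.982), an epithelial splicing factor, and *Dsg2* (0.977), a desmosomal cadherin. For *Ramp1* they were *Col24a1* (0.993), *Igfbp6* (0.991) and *Zdhhc1* (0.985), the last of which was also the most like *Calca* before the means were subtracted. These are the highest values among all genes compared. Mutant replicates 1 and 5 had the lowest *Calca* and *Ramp1* and the highest *Ramp3*, and how far these uteri carry the values was not tested.

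Other genes of the pathway were counted in lists. Of 6 relatives of the members, the calcitonin receptor gene *Calcr* and the amylin gene *Iapp* averaged at most 0.00965 CPM in either genotype and were not tested, and 0 of the other 4 passed in edgeR (2 at an unadjusted p under 0.05, and 1 called by DESeq2). Here *Crcp*, a receptor component, had 17.9 and 21.9 CPM (adjusted p = 0.0688 from edgeR) and *Ackr3*, a scavenger receptor that binds adrenomedullin, had 38.2 and 35.9 CPM (adjusted p = 0.747). Of 13 genes of peptide processing and breakdown, 1 was called lower and 0 higher in edgeR (2 and 2 at an unadjusted p under 0.05, 2 and 0 in DESeq2), with a median log2 fold change of -0.25. This was the carboxypeptidase gene *Cpd*, with 239 and 199 CPM and a log2 fold change of -0.27 (adjusted p = 0.0360 from edgeR). *Pam*, the enzyme that amidates CGRP and adrenomedullin, had 166 and 265 CPM (adjusted p = 0.334), and *Mme*, the peptidase neprilysin, 1024 and 516 CPM (adjusted p = 0.238), neither of which passed.

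Of 34 genes of Gs and cyclic AMP signalling, 6 were called lower and 1 higher, 20.6% of the list beside 9.70% of all genes and 13.5% of those averaging 100 or more counts, as all of the list but *Adcy8* did, with a median log2 fold change of -0.17. The 4 with the lowest p were *Adcy4*, an adenylyl cyclase (log2 fold change -0.84, adjusted p = 0.00421), *Pde4c*, a phosphodiesterase (-0.86, adjusted p = 0.0218), *Arrb1*, an arrestin (-0.51, adjusted p = 0.0256), and *Nos3*, the endothelial nitric oxide synthase (-0.91, adjusted p = 0.0266), all from edgeR. *Gnas*, the gene of the Gs subunit, had 773 and 730 CPM (adjusted p = 0.681). Of 14 genes of the hypoxia response, which also drives *Adm*, 3 were called higher and 2 lower (median 0.05). *Car9* (log2 fold change 2.08) and *Egln3* (2.48) rose with adjusted p of 0.00625 and 0.0295, *Ldha* rose by 0.50 (adjusted p = 0.0358), and *Ndrg1* fell by 0.87 (adjusted p = 0.00102), all from edgeR. Of 14 genes of the progesterone response, 2 were called lower and 0 higher in edgeR (5 and 1 at an unadjusted p under 0.05, 3 and 1 in DESeq2), with a median of -0.26. The 2 were *Areg*, the growth factor amphiregulin, with 8.50 and 0.377 CPM (log2 fold change -4.49, adjusted p = 0.00131), and *Fkbp5*, with 61.3 and 33.6 CPM (-0.87, adjusted p = 0.0379). The summed level of this list was 2537 to 3083 CPM in controls and 1190 to 2381 CPM in mutant uteri. It was lowest in replicates 1 and 5, which stood apart on the first principal component and were also lowest for *Calca*. *Lrp2*, which was not called (adjusted p = 0.161 from edgeR), weighed heavily in this sum, with 640 and 126 CPM. *Pgr*, the progesterone receptor gene, had 314 and 339 CPM (adjusted p = 0.722).

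**Figure D5:**
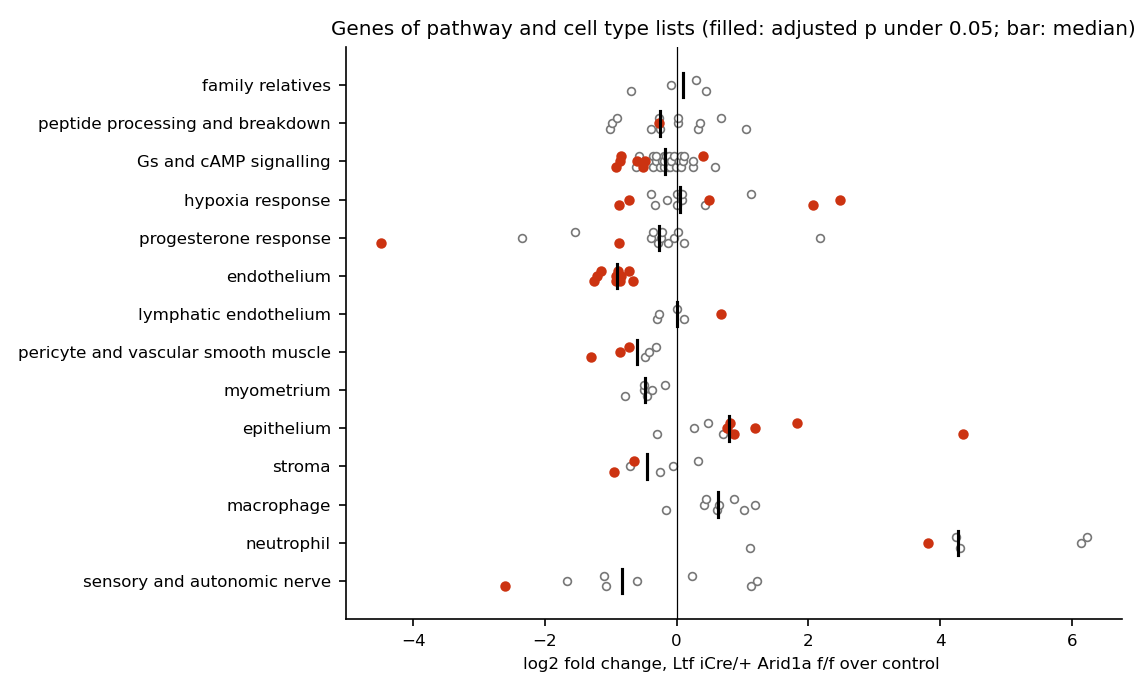
Log2 fold change of Ltf iCre/+ Arid1a f/f over control uteri (horizontal axis) of the tested genes of 14 lists (rows), with 1 point per gene, filled red where edgeR's adjusted p is under 0.05, and a black bar at the median of each list. All 10 endothelial genes are filled and below 0, and 6 of the 10 epithelial genes are filled and above 0.

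Lists of other cells in the uterus are given for comparison. Of 6 myometrial genes 0 passed in edgeR (1 at an unadjusted p under 0.05 and 1 in DESeq2, both lower), with a median log2 fold change of -0.48. Of 6 stromal genes 2 were called lower (median -0.45). Of 8 macrophage genes 0 passed in edgeR (4 at an unadjusted p under 0.05 and 2 in DESeq2, all higher), with a median of 0.62. Of 6 neutrophil genes 1 was called higher, and their summed level was 1.80 to 15.0 CPM in controls and 6.77 to 766 CPM in mutant uteri, with the 766 CPM in replicate 5, the uterus that also held the highest *Adm*, *Adm2* and *Calcb*. The part of these cells in the values of those 3 genes was not tested. Of 9 genes of sensory and autonomic nerves, in which *Calca* and *Calcb* are known to be expressed, 8 were tested. In edgeR 1 of them, *Snap25*, was called lower (0.219 and 0.0350 CPM) and 0 higher. At an unadjusted p under 0.05, and also in DESeq2, 3 were lower and 0 higher, with a median log2 fold change of -0.83. The summed level of this list was at most 7.95 CPM in any uterus.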

How the data were processed

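Uterine RNA of 5 Arid1a f/f and 5 Ltf iCre/+ Arid1a f/f mice was sequenced as 50 bp paired reads. Per the labels and the paper, the authors trimmed reads with cutadapt 1.18 and Trim Galore 0.6.4, aligned them to GRCm38 with STAR 2.7.3a and deposited the unnormalized counts per gene of its GeneCounts mode. The annotation release and strand setting are not given in the sources used here.

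Symbols were taken from GENCODE M21, which held 45143 of 45706 identifiers. Genes averaging 1 or more counts per library were tested in R 4.3.3 with edgeR 4.0.16 (TMM, quasi-likelihood test, genotype as the only factor, Benjamini-Hochberg over all genes), with DESeq2 1.42.0 as the alternative. CPM used TMM library sizes. Ratios of log2(CPM + 0.05) were compared by two-sided exact permutation tests. P-values cover the spread between these mice. No libraries were duplicates (chi-square of at least 36.1 per gene between uteri of a genotype).

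Named genes were the 8 members, at most 4 called genes of lowest p per pathway list, markers, and the 3 genes most like each member with at least 100 counts. Values of other list genes (*Gnas*, *Pgr*, *Lrp2*, *Pam*, *Mme*, *Crcp*, *Ackr3*, *Snap25*, *Rgs5*, *Pdpn*) were picked after they were seen. Members and lists were chosen with earlier results of these data known. Procedures were tested on simulated counts. Drawings used matplotlib 3.10.9.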

Additional observations from a re-analysis of the deposited data

Results flagged for a closer look

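Values were examined in 40 sets of 5 uteri (the 8 genes, 8 ratios and 4 relative levels in each genotype) for a sample far from the other 4, which chance gives for about 1 set in 20. *Adm2* in Ltf iCre/+ Arid1a f/f replicate 5 stood at 0.260 CPM, from 18 counts, while the other 4 uteri of the genotype held at most 3 counts. *Ramp3* in control replicate 4 stood at 35.1 CPM, above the other controls (25.7 to 27.8 CPM) and just below the lowest Ltf iCre/+ Arid1a f/f uterus (36.1 CPM).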

How the results depend on the processing

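Depth limited *Adm2* and *Calcb*, with at most 18 and 36 counts per library. Same-numbered uteri were not clearly alike (their deviations correlated between -0.10 and 0.17, and 3 of 10 uteri correlated best with their own number). The sources used here do not say whether same-numbered uteri came from littermates, which these correlations cannot decide. Of 159 values under other alternatives, 125 were rated the same as in the main setting, and of 249 with 1 uterus left out, 191 were. For fold changes, ratios and relative levels this meant the same direction and call. For counts of called genes and levels per length it meant a value close to the main one. The cause was not tested where none is named.

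DESeq2 called 4103 genes (2131 higher, 1972 lower; edgeR 2438), 9 pathway genes higher in place of 4, and *Ramp2* (-0.51), which also passed with total counts as library sizes (-0.51). With the replicate number as a block (replicate block) 1704 genes were called (845 higher, 859 lower) and 1 pathway gene higher, *Calca* (-2.97, adjusted p = 0.0645 in edgeR) and *Ramp3* (1.19, adjusted p = 0.0536) were lost, *Ramp2* (-0.51, adjusted p = 0.0299) was gained and *Calcb* turned to -0.069. Sign flips over replicate numbers cannot go below a p of 0.0625, so the differences lost their calls by construction at the same values, -2.89 for *Calca* to *Calcb*, 1.71 for *Ramp3* to *Ramp2*, -1.87 for *Ramp1* to *Ramp3*, -2.30 for *Calca* to *Calcrl*, 0.44 and 2.15 for *Ramp2* and *Ramp3* against endothelium and -3.97 for *Calca* against epithelium.

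Without mutant (Ltf iCre/+ Arid1a f/f) replicates 1 and 5 together, *Ramp2* passed (-0.53), 7 pathway genes were called higher, *Calcb* (-0.16), *Adm* (-0.25) and the ratio of *Ramp1* to *Ramp2* (0.37) turned in sign, and with 3 uteri against 5 the ratios of *Calca* to *Calcb* (-1.63), *Ramp3* to *Ramp2* (1.19), *Ramp1* to *Ramp3* (-0.82) and *Calca* to *Calcrl* (-1.14) no longer passed. With all 10 uteri, *Ramp3* differed by 0.19 against epithelium in place of endothelium. Control levels per length over the longest transcript were 5.57 for *Calca*, 8.19 for *Adm*, 29.2 for *Ramp1* and 43.0 for *Ramp2*, and *Ramp2* had 28.9 over unshared exons.

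With 1 uterus left out, 1204 (without control replicate 2) to 2381 genes were called (594 to 1296 higher, 610 to 1085 lower), and 1 to 5 pathway genes higher and 3 to 13 lower. Log2 fold changes were -2.91 to -2.10 for *Calca*, -0.31 to 0.25 for *Calcb*, -0.064 to 0.27 for *Adm*, -0.62 to -0.42 for *Ramp2* and 0.99 to 1.54 for *Ramp3*. Log2 ratio differences were -3.45 to -2.37 for *Calca* to *Calcb*, -0.34 to 0.18 for *Ramp1* to *Ramp2*, 1.49 to 1.91 for *Ramp3* to *Ramp2*, -2.25 to -1.35 for *Ramp1* to *Ramp3*, -2.79 to -1.77 for *Calca* to *Calcrl* and 0.56 to 0.84 for *Adm* to *Calcrl*.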
